A study of Mus musculus with 18 samples.

Results

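The comparison was between the hippocampi of 5xFAD mice and of wild-type (WT) mice that had all received the control shRNA, and its members were the 8 of 18 sequenced libraries that the sample labels place in the groups 5xFAD shCT (mice 1, 16 and 18, n = 3) and WT shCT (mice 3, 5, 6, 11 and 15, n = 5). 5xFAD mice carry human APP695 with the Swedish, London and Florida mutations and human presenilin-1 with familial Alzheimer's disease mutations, both driven by the murine Thy-1 promoter, so that the transgenes are expressed in neurons and amyloid builds up in the brain. WT mice lacked both transgenes and had a B6SJL background. All mice were male, were injected at 6 months of age in CA1 and the dentate gyrus with the neuron-targeted virus rAAV2/8-H1-shControl-RSV-GFP, and were killed 4 weeks later. Surgery, virus, GFP and a control shRNA were therefore shared by all 8 mice. The RNA was the gel-purified fraction of 60 to 100 nucleotides from both hippocampi, broken by alkaline hydrolysis before library preparation (Hydro-tRNA-seq), with 1 library per mouse.

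A tRNA gene is transcribed by RNA polymerase III as a precursor (pre-tRNA) with a 5′ leader and a 3′ trailer, and some precursors also hold an intron that is cut out by the tRNA splicing endonuclease before the exons are joined by the tRNA ligase complex. Mature tRNAs that carry the same amino acid are isoacceptors. Those that share an anticodon but differ in the body of the molecule are listed as separate isodecoders. In brain, tRNAs can also be cleaved into 5′ and 3′ fragments under stress, and mitochondria (mt) make their own set of tRNAs.

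Each of the 8 libraries held between 19835636 and 32308637 reads. Every value below is a percentage of the reads of its own RNA class (mature tRNA, pre-tRNA, mt-tRNA, snoRNA, rRNA, snRNA, miRNA or other small RNA), and a log2 difference is 5xFAD shCT minus WT shCT after 0.5 read was added. Labels of tissue were checked on the few marker RNAs in this size range. Mir124a-1, a neuronal miRNA gene, had at least 1 read in 6 of the 8 libraries, and the 2 of 5 myeloid marker genes in the table together held between 0 and 53 reads per library. None of the 5 muscle markers and not Mir122, the liver marker, was in the table. In bulk tissue, fewer cells of a type and less RNA per cell cannot be told apart.

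Before the results, 2 WT libraries have to be described. WT shCT mouse 5 stood apart, with 98.7% of its reads on mature tRNAs and 1.15% on pre-tRNAs, which left 624 reads on all mt-tRNAs, 925 on snRNAs and 1172 on miRNA genes. In that library 95.4% of mature tRNA reads were 3′ reads, and tRNA-Asn-GTT-3 alone took 41.7% of all mature tRNA reads. WT shCT mouse 15, in contrast, had the lowest share of mature tRNA reads of all 8 libraries (33.3%) and the highest share of rRNA (17.5%). Results are given for all 8 mice and, where the value or the call moved, without WT shCT mouse 5. The part of library make-up in the results was not tested.

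By RNA class, the 5xFAD libraries held a smaller share of mature tRNA reads and larger shares of snoRNA and miRNA reads than the WT libraries, although no class passed adjustment. Mature tRNAs took 53.7, 40.1 and 40.3% of reads in 5xFAD shCT mice 1, 16 and 18, against 70.1, 98.7, 75.4, 82.7 and 33.3% in WT shCT mice 3, 5, 6, 11 and 15. The 5xFAD mice lay below every WT mouse but mouse 15, and the means were 44.7 ± 7.77% (SD, n = 3) and 72.0 ± 24.2% (SD, n = 5), with a two-sided exact permutation p of 0.125. snoRNAs, which guide the modification of rRNA and snRNA, took 6.87, 6.21 and 7.80% against 3.02, 0.0235, 3.12, 1.05 and 5.67%. Here the groups did not overlap (6.96 ± 0.800%, n = 3, against 2.58 ± 2.17%, n = 5, exact permutation p = 0.0536). Reads of miRNA genes took 0.288, 0.267 and 0.258% against 0.113, 0.00591, 0.156, 0.0349 and 0.197%. These did not overlap either (0.271 ± 0.0154%, n = 3, against 0.101 ± 0.0802%, n = 5, exact permutation p = 0.0357). Without the reads of Mir5121, a gene that overlaps Snord33 and was set aside after seeing the data, the miRNA shares were 0.152, 0.0909 and 0.100% against 0.0805, 0.00591, 0.115, 0.0327 and 0.0812%. The groups then overlapped through WT mouse 6 (0.114 ± 0.0329%, n = 3, against 0.0631 ± 0.0434%, n = 5, exact permutation p = 0.161). With 3 mice against 5 the smallest possible p is 0.0179, and over the 8 classes the lowest Benjamini-Hochberg adjusted p was 0.167. One WT library decided these calls, since leaving out WT shCT mouse 15 gave log2 ratios between group means of -0.87 for mature tRNA, 1.46 for mt-tRNA, 1.95 for snoRNA, 2.30 for rRNA, 1.81 for miRNA and 1.74 for other small RNA, each with an adjusted exact permutation p of 0.0381. Without that mouse the groups were separate in each of these classes. They were separate in snRNA too, where the lowest adjusted exact permutation p with 1 mouse left out was 0.0653. With 1 WT mouse fewer the smallest possible p is above 0.0179. The class shares of a library depend on each other, so these equal p values are not separate results.

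**Figure D1:**
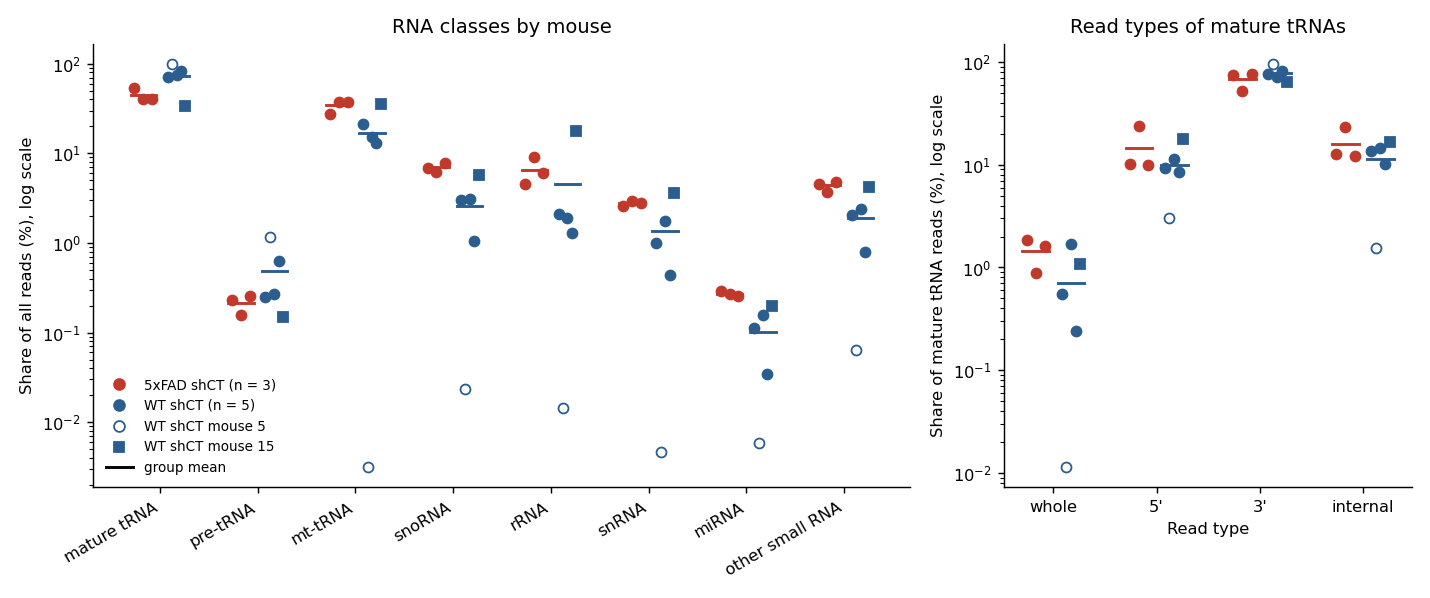
Share of all reads in each RNA class (left) and share of mature tRNA reads of each read type (right), 1 point per mouse, in percent on a log axis, with group means as lines. WT shCT mouse 5 (open circle) has almost no reads outside tRNAs, WT shCT mouse 15 (square) lies within the 5xFAD range for mt-tRNA and other small RNA and has the lowest mature tRNA and the highest rRNA share, and the snoRNA and miRNA shares of the 3 5xFAD mice lie above all 5 WT mice.

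Across single RNAs, 1319 entries with a mean of at least 10 reads were tested in 1 limma fit, and none passed a Benjamini-Hochberg adjusted p of 0.05 (lowest adjusted p = 0.727). At an unadjusted p under 0.05, 76 entries (5.76%) were counted, 33 of them (2.5%) higher and 43 (3.26%) lower in 5xFAD mice. DESeq2 and edgeR on the recovered reads also gave 0 adjusted calls, with 117 unadjusted calls by DESeq2 and 78 by edgeR with class totals as offsets. In 50 entries (3.79%) every 5xFAD mouse lay above every WT mouse, and in 17 (1.29%) below. By class, in pre-tRNAs 27 of 247 (10.9%) were counted and in snRNAs 25 of 268 (9.33%), all of the latter lower, while mature tRNAs had 5 of 202 (2.48%) and mt-tRNAs 0 of 22 (0%). These counts changed when single mice were left out. The pre-tRNA count was 7 to 12 without any 1 of the 5xFAD mice or without WT shCT mouse 3 or 11, and 45 and 49 when WT shCT mice 15 and 6 were omitted in turn. The snRNA count was 4 without 5xFAD shCT mouse 18, 12 to 14 without 5xFAD shCT mouse 16 or WT shCT mouse 3, 6 or 11, and 42 and 45 when 5xFAD shCT mouse 1 and WT shCT mouse 15 were omitted in turn. The mature tRNA count was 2 or 3 without any 1 of the 5xFAD mice or without WT shCT mouse 3 or 11, and 11, 15 and 19 when WT shCT mice 5, 6 and 15 were omitted in turn. Without WT shCT mouse 5 the total was 98 (7.43%), 48 of them (3.64%) higher and 50 (3.79%) lower, and 59 were also counted with it. Without that mouse 62 entries (4.7%) lay above and 48 (3.64%) below without overlap. The scale matters for direction. On the deposited scale, on which all classes share 1 size factor per library, the median log2 difference of all entries was 1.6, with class medians of -0.42 for mature tRNA, -0.99 for pre-tRNA, 3.0 for mt-tRNA, 2.49 for snoRNA, 2.43 for rRNA, 1.83 for snRNA and 1.79 for miRNA. Differences below are therefore relative to the other reads of the same class.

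**Figure D2:**
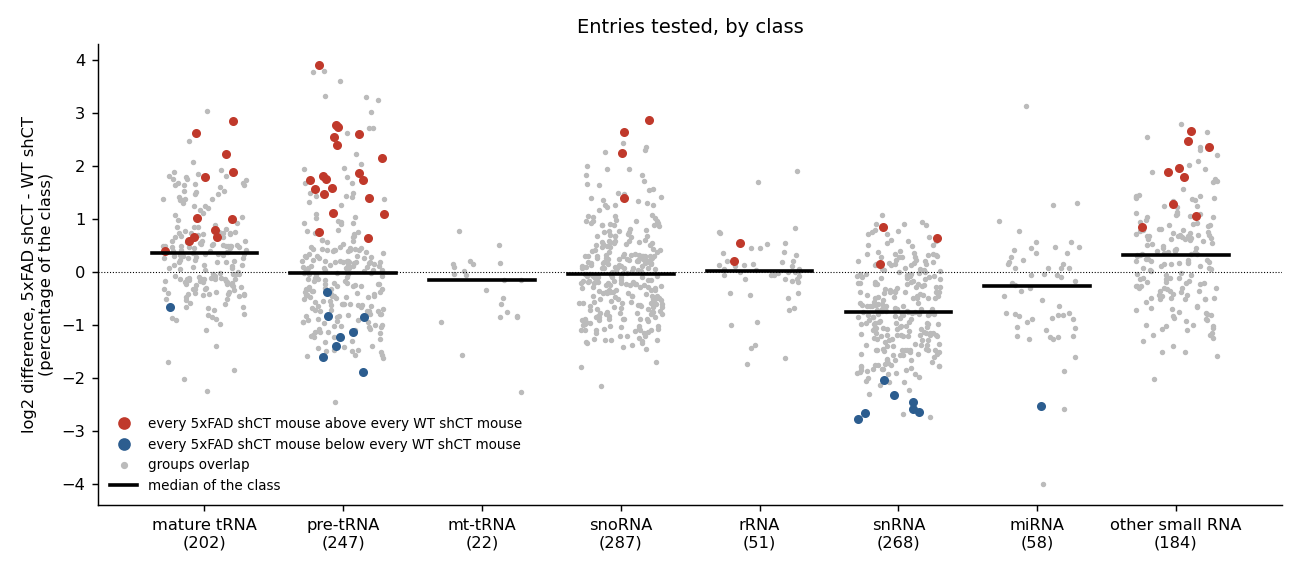
Log2 difference of each of the 1319 entries tested, by class (number tested in brackets), on the scale of percentages of the class. Red and blue points are entries whose 3 5xFAD and 5 WT values do not overlap, which lie mostly in the mature tRNA and pre-tRNA classes on the upper side and in pre-tRNAs and snRNAs on the lower side, and on the deposited scale nearly all points outside the tRNA classes lie above 0.

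Among mature tRNAs, the 4 isodecoders of tRNA-Asp-GTC, which reads the aspartate codons and carries queuosine in its anticodon, were all higher in 5xFAD mice on the class scale, whereas tRNA-Asp-GTC-3 turned lower under DESeq2 and edgeR's TMM scaling. The most abundant, tRNA-Asp-GTC-1, took 8.11, 11.1 and 13.1% of mature tRNA reads in 5xFAD shCT mice 1, 16 and 18, against 0.945, 7.98, 5.67, 0.891 and 4.94% in WT shCT mice 3, 5, 6, 11 and 15. The groups did not overlap, with WT mice 3 and 11 far below the other mice and WT mouse 5 just below the lowest 5xFAD mouse. The log2 difference was 1.89 ± 0.84 (SE; limma unadjusted p = 0.0487, adjusted p = 0.727), and 2.26 ± 0.75 without WT shCT mouse 5. tRNA-Asp-GTC-2 took 1.62, 1.93 and 1.90% against 0.225, 0.783, 1.20, 0.181 and 1.04%, again without overlap, and tRNA-Asp-GTC-4 took 0.122, 0.184 and 0.196% against 0.0141, 0.0368, 0.100, 0.0128 and 0.0797%. In tRNA-Asp-GTC-3, a minor isodecoder with 159 to 1438 reads per library, WT shCT mouse 5 (0.00734%) lay above the 5xFAD mice (0.00578 to 0.00631%). Over the 4 isodecoders 3 were counted at an unadjusted p under 0.05, where the share of all mature tRNAs higher at that level was 2.48%, and 3 showed no overlap, where the share was 5.94%. Their median log2 difference was 1.84, beside 0.36 for all mature tRNAs, and it was 0.47 under DESeq2 and 0.23 under edgeR's TMM.

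Among the other tRNAs with a queuosine-type anticodon, all 5 isodecoders of tRNA-Asn-GTT, which reads the asparagine codons, had lower mean levels in 5xFAD mice (median log2 difference -1.69), but none was counted. tRNA-Asn-GTT-3 took 1.95, 1.34 and 2.65% against 6.39, 41.7, 1.74, 13.5 and 2.33%. WT mice 6 and 15 lay within the 5xFAD range, so that the difference (-1.84 ± 1.0, limma unadjusted p = 0.096) rested on WT mice 3, 5 and 11. The 3 isodecoders of tRNA-His-GTG were higher on the class scale (median 0.70) and lower under DESeq2 (median -0.62) and edgeR's TMM (median -0.92). Of the 32 inosine-type isodecoders tested, which have A at the first anticodon position, 21 were higher on the class scale (8 under DESeq2), none was counted and 5 showed no overlap, where the share of all mature tRNAs was 5.94%. tRNA-Ile-AAT-1, among these, took 0.253, 0.327 and 0.285% against 0.216, 0.163, 0.136, 0.174 and 0.228%. The groups were separate but close, and the log2 difference of 0.67 ± 0.45 (limma unadjusted p = 0.165) became -0.14 under DESeq2, -0.61 under edgeR's TMM and -0.10 on the deposited scale.

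Of the rarer mature tRNAs, tRNA-Ser-CGA-1, which reads the UCG serine codon, took 0.0494, 0.0203 and 0.0263% against 0.00127, 0.0159, 0.0126, 0.00139 and 0.00716%, without overlap. Its log2 difference was 2.63 ± 0.95 (limma unadjusted p = 0.0205), and it was 3.07 ± 0.86 without WT shCT mouse 5. tRNA-Ser-CGA-3, with 7 to 292 reads per library, showed the same order (2.86 ± 0.93, limma unadjusted p = 0.0123), while in tRNA-Ser-CGA-2 WT shCT mouse 15 (0.0271%) lay above 2 of the 3 5xFAD mice (0.0405, 0.0235 and 0.0131%). All 3 Ser-CGA isodecoders stayed higher under the 6 other scalings and count models run. tRNA-SeC-TCA-1, which inserts selenocysteine at UGA codons, took 1.94, 0.800 and 0.912% against 0.0499, 0.14, 1.57, 0.00783 and 0.543%. WT mouse 6 lay within the 5xFAD range and WT mouse 11 was far below all others, so that the mean difference of 3.04 ± 1.49 (limma unadjusted p = 0.0691) went with a wide spread in WT mice. Its precursor, pre-tRNA-SeC-TCA-1-1, took 0.551, 0.482 and 0.282% of pre-tRNA reads against 0.0328, 0.00306, 0.425, 0.00536 and 0.188%, with WT mouse 6 again inside the 5xFAD range (3.60 ± 1.51, limma unadjusted p = 0.0399, and 0.0641 without WT shCT mouse 5).

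On the lower side, tRNA-Cys-GCA-16 was the only one of the 202 tested whose 3 5xFAD values (0.00454, 0.00414 and 0.00456%) all lay below the WT values (0.00729, 0.00787, 0.00615, 0.0102 and 0.00463%), and by a margin of less than the 5xFAD range at WT mouse 15 (-0.66 ± 0.46, limma unadjusted p = 0.184). It shares reads with tRNA-Cys-GCA-21, in which the groups overlapped. tRNA-Arg-TCG-1, which reads the CGA arginine codon, took 0.126, 0.0637 and 0.139% against 0.260, 0.308, 0.152, 0.319 and 0.138%. WT mouse 15 lay just below the highest 5xFAD mouse, and the log2 difference was -1.10 ± 0.54 (limma unadjusted p = 0.0696). tRNA-Arg-TCT-4, a nuclear-encoded tRNA expressed mainly in neurons, took 0.00114, 0.000472 and 0.00361% against 0.00532, 0.0338, 0.00165, 0.00988 and 0.00245%. WT mice 6 and 15 fell inside the 5xFAD range (-2.24 ± 1.04, limma unadjusted p = 0.0579, and -1.61 ± 0.82 without WT shCT mouse 5). The most abundant species, tRNA-Gly-CCC-1, took 16.8 to 32.6% in 5xFAD and 13.1 to 38.2% in WT mice, with a log2 difference of -0.24 ± 0.53.

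**Figure D3:**
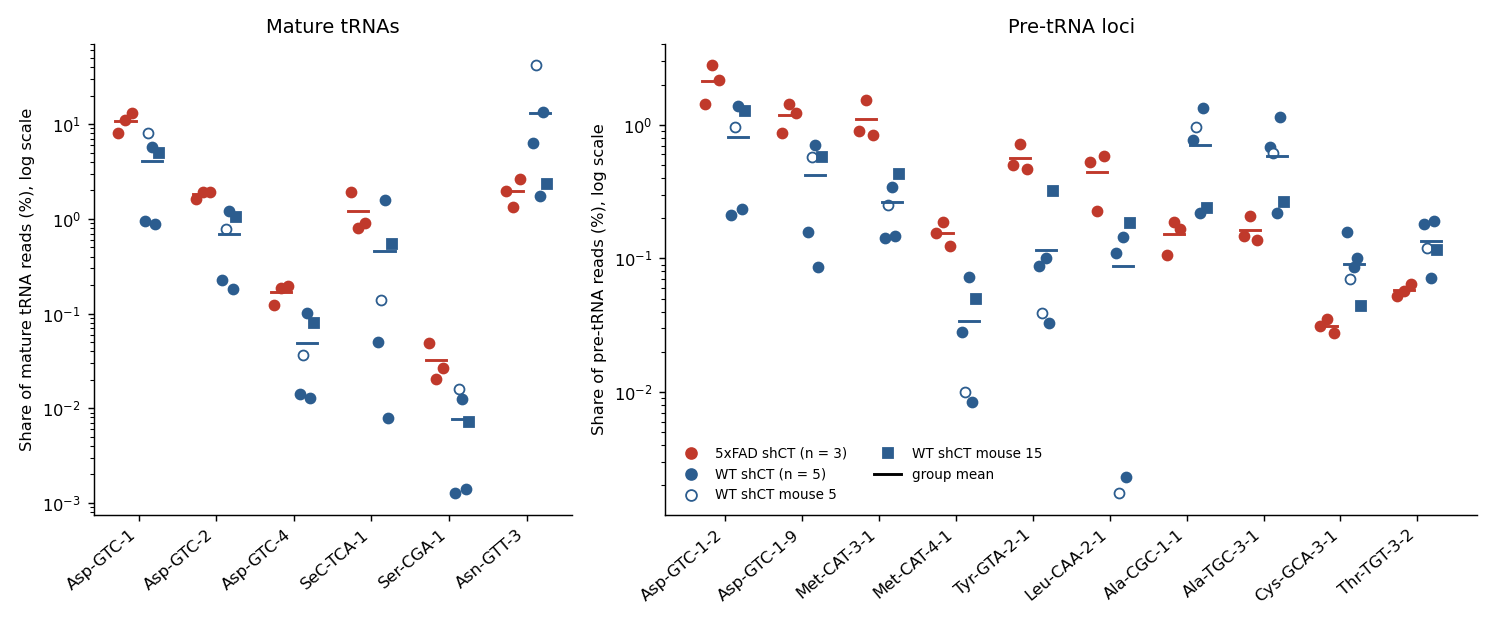
Percentage of mature tRNA reads (left) or of pre-tRNA reads (right) in each mouse for 6 mature tRNAs and 10 pre-tRNA loci, on log axes, with group means as lines. The WT mice spread widely in SeC-TCA-1 and the Leu-CAA-2-1 locus (0.00175 to 0.184% in the latter), and WT shCT mouse 15 (square) is often the WT mouse nearest to the 5xFAD mice. The loci Asp-GTC-1-2 and Asp-GTC-1-9 are drawn higher in 5xFAD mice and turned slightly lower under DESeq2 and edgeR's TMM.

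In the precursor pool the intron-containing loci were compared one by one. Of the 22 intron-containing loci listed by the study, 20 were in the table and 14 passed the filter on low values. The filter used the mean of all 8 libraries, so that a locus with few WT reads could pass through its 5xFAD reads. No direction is given for the loci that did not pass. Of these 14, 13 were higher in 5xFAD mice on the class scale (11 to 13 under the other scalings and count models), 6 were counted at an unadjusted p under 0.05, where 7.29% of all pre-tRNA loci were higher at that level, and 3 showed no overlap, where the share was 8.1%. The median log2 difference was 2.73, beside -0.01 for all pre-tRNA loci, and it was 1.19 under DESeq2, 1.32 under edgeR's TMM, 1.49 under edgeR with class totals as offsets and 1.7 on the deposited scale. Without WT shCT mouse 5 it was 2.15, and 2 loci were counted. Summed, the 20 loci took 3.77, 3.25 and 2.48% of pre-tRNA reads in 5xFAD mice against 0.687, 0.232, 1.14, 0.214 and 2.87% in WT mice. The groups overlapped through WT mouse 15, and the separate sums of the Arg-TCT, Leu-CAA, Ile-TAT and Tyr-GTA loci overlapped too. pre-tRNA-Tyr-GTA-2-1 took 0.503, 0.716 and 0.466% of pre-tRNA reads in 5xFAD mice against 0.0881, 0.0390, 0.100, 0.0329 and 0.322% in WT mice. All 5xFAD values were higher, with WT mouse 15 about 3 times above the next WT mouse, and the log2 difference was 2.75 ± 0.75 (limma unadjusted p = 0.00489, adjusted p = 0.727). pre-tRNA-Tyr-GTA-3-1 repeated this order at 2 to 35 reads per library (2.78 ± 0.75, limma unadjusted p = 0.00441).

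In the leucine family, pre-tRNA-Leu-CAA-2-1 took 0.528, 0.226 and 0.586% against 0.109, 0.00175, 0.146, 0.00230 and 0.184%. The groups did not overlap, WT mice 5 and 11 held only 4 and 3 reads at this locus, and the log2 difference of 3.91 ± 1.63 (limma unadjusted p = 0.0383) was 2.96 ± 1.37 without WT shCT mouse 5. pre-tRNA-Arg-TCT-2-1 took 0.0330, 0.0433 and 0.0290% against 0.00299, 0, 0.00547, 0 and 0.0585%. Its highest value of all was WT mouse 15, and the zeros of WT mice 5 and 11 allow shares of up to 0.00131% and 0.00230%, a limit from 3 counts that covers counting error only. pre-tRNA-Ile-TAT-2-1 took 1.16, 0.974 and 0.241% against 0.0985, 0.00700, 0.321, 0.0138 and 1.01%, so that WT mice 6 and 15 overlapped the 5xFAD mice (3.02 ± 1.53, limma unadjusted p = 0.0785). pre-tRNA-Tyr-GTA-1-3 was the single tested locus on the lower side (0.00495, 0.00394 and 0.00290% against 0.0209, 0.0460, 0, 0.0352 and 0.0104%), and it overlapped only through WT mouse 6, which had no read there. Its share in each 5xFAD mouse rested on only a few reads.

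The loci of pre-tRNA-Asp-GTC, which have no intron, were also compared one by one. All 15 tested of the 16 loci were higher on the class scale, while 7 turned lower under DESeq2 and 12 under edgeR's TMM. Of the 15, 5 were counted, where 7.29% of all pre-tRNA loci were higher at that level, and 10 showed no overlap, where the share was 8.1%. The median log2 difference was 1.74. Without WT shCT mouse 5 it was 1.88, with 8 loci counted (7.29% of all pre-tRNA loci) and 11 without overlap (9.72% of all). pre-tRNA-Asp-GTC-1-2 took 1.44, 2.79 and 2.18% against 0.212, 0.964, 1.39, 0.234 and 1.27%, with the lowest 5xFAD mouse just above WT mouse 6. WT mice 3 and 11 were the low ones, as in mature tRNA-Asp-GTC-1. pre-tRNA-Asp-GTC-1-9 took 0.864, 1.44 and 1.23% against 0.157, 0.576, 0.704, 0.0857 and 0.577% (1.86 ± 0.78, limma unadjusted p = 0.0384). The most abundant locus shown here, pre-tRNA-Asp-GTC-1-11, took 3.99, 4.52 and 4.22% against 0.652, 2.32, 4.21, 0.461 and 3.34%, so that WT mouse 6 overlapped the 5xFAD mice. Loci with near-identical precursors can share reads, and 1 of the 16 shared its reads with another entry.

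**Figure D4:**
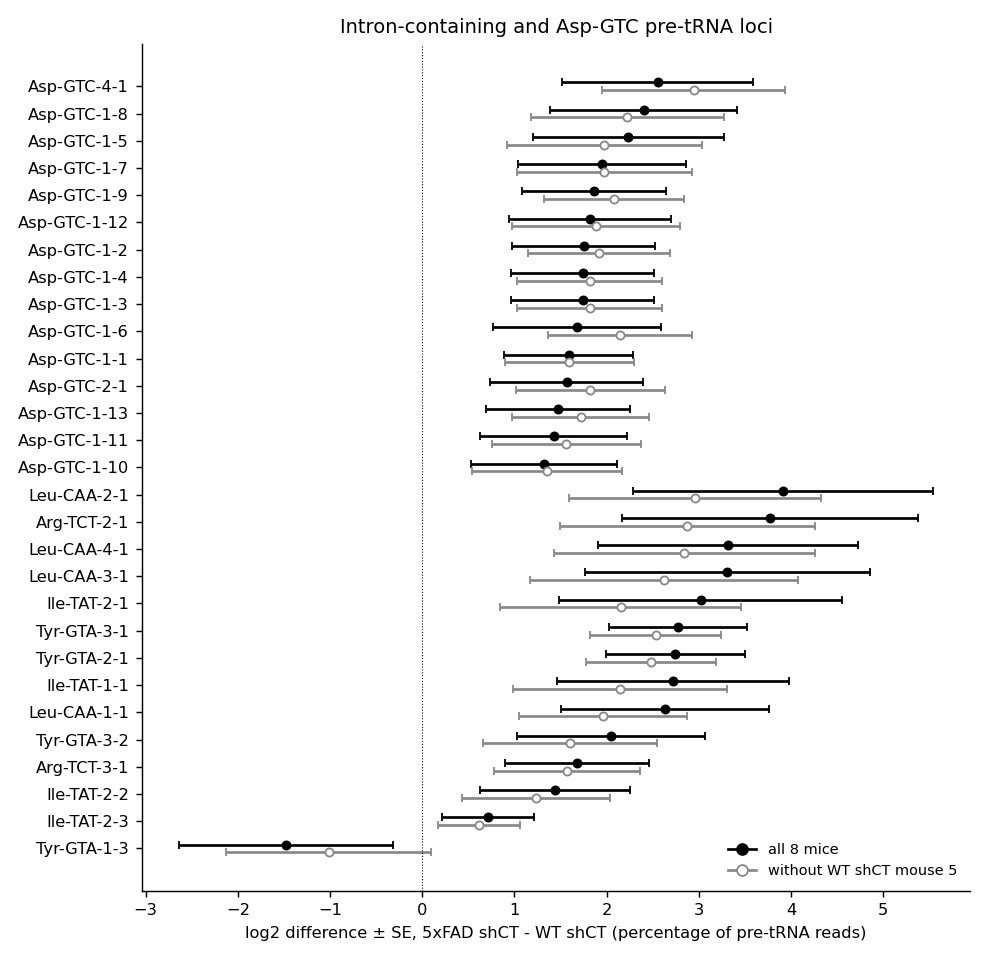
Log2 difference with its SE for the 15 Asp-GTC loci and the 14 intron-containing loci tested, with all 8 mice (black) and without WT shCT mouse 5 (grey), on the scale of percentages of pre-tRNA reads. Only Tyr-GTA-1-3 lies below 0, all 14 intron-containing loci and 2 of the Asp-GTC loci lie closer to 0 without mouse 5, while under edgeR's TMM scaling 12 of the Asp-GTC loci and 3 of the intron-containing loci lie below 0.

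Outside these families, 2 loci of the elongator methionine tRNA were the only ones of 7 tested Met-CAT loci that were higher with all 8 mice (3 without WT shCT mouse 5). pre-tRNA-Met-CAT-3-1 took 0.903, 1.55 and 0.846% against 0.142, 0.251, 0.343, 0.147 and 0.430%. The lowest 5xFAD mouse was about 2 times the highest WT mouse, the log2 difference was 2.15 ± 0.56 (limma unadjusted p = 0.00362, adjusted p = 0.727), and it was 2.16 ± 0.54 without WT shCT mouse 5. pre-tRNA-Met-CAT-4-1 took 0.155, 0.187 and 0.123% against 0.0284, 0.0101, 0.0729, 0.00842 and 0.0501%, also without overlap (2.61 ± 0.78, limma unadjusted p = 0.00759). The loci of initiator methionine, which starts translation, were split (5 of 9 higher on the class scale, 1 of 9 under DESeq2).

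Some loci of alanine, cysteine and threonine tRNAs were lower on the class scale, while 1 of the 4 tested Ala-TGC loci (0.094) and 1 of the 9 tested Cys-GCA loci (0.11) were higher. The loci named first are those with low p values. pre-tRNA-Ala-CGC-1-1 took 0.106, 0.189 and 0.165% against 0.769, 0.964, 0.217, 1.35 and 0.240%, and pre-tRNA-Ala-TGC-3-1 took 0.148, 0.207 and 0.136% against 0.679, 0.616, 0.219, 1.15 and 0.263%. In both loci the groups were separate, WT mice 6 and 15 lay close to the 5xFAD mice, and the log2 differences were -1.89 ± 0.72 (limma unadjusted p = 0.0262) and -1.59 ± 0.64 (limma unadjusted p = 0.0326). Of 9 tested pre-tRNA-Cys-GCA loci, 8 were lower, 2 were counted, where 3.64% of all pre-tRNA loci were lower at that level, and 3 showed no overlap, where 3.24% of all pre-tRNA loci lay below without overlap. All 9 were lower when WT shCT mouse 5 was left out, with 4 counted (3.64% of all pre-tRNA loci) and 4 without overlap (6.48% of all). pre-tRNA-Cys-GCA-3-1 took 0.0313, 0.0354 and 0.0276% against 0.157, 0.0700, 0.0857, 0.100 and 0.0439% (-1.40 ± 0.53, limma unadjusted p = 0.025). pre-tRNA-Thr-TGT-3-2 took 0.0528, 0.0571 and 0.0639% against 0.182, 0.120, 0.0711, 0.191 and 0.115%, with the 5xFAD mice in a tight group below all WT mice (-1.13 ± 0.50, limma unadjusted p = 0.0478). The lowest p among pre-tRNA loci on this side belonged to pre-tRNA-Thr-CGT-4-1 (0.0181, 0.0177 and 0.09% against 0.233, 0.351, 0.0584, 0.367 and 0.0898%), in which 5xFAD mouse 18 overlapped WT mice 6 and 15 (-2.46 ± 0.83, limma unadjusted p = 0.0146). Of the 22 mature Cys-GCA isodecoders, 16 were higher on the class scale with all 8 mice, opposite to most of their loci. Without WT shCT mouse 5, 5 were higher and 17 lower on that scale (median -0.083), the direction of the loci. Under DESeq2 1 was higher, and under edgeR with class totals as offsets 17 were.

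The read types of mature tRNAs overlapped between genotypes when all tRNAs were summed. Whole-length reads made up 1.87, 0.878 and 1.61% of mature tRNA reads in 5xFAD mice against 0.552, 0.0114, 1.68, 0.241 and 1.08% in WT mice, and 5′ reads made up 10.2, 23.8 and 10.05% against 9.25, 3.03, 11.4, 8.44 and 17.8%. Both overlapped, with 5xFAD mouse 16 high in 5′ reads and WT mouse 5 low in both. The exact permutation p was 0.179 for whole, 0.357 for 5′, 0.339 for 3′ and 0.429 for internal reads (adjusted p = 0.429 for all 4, 3 mice against 5). When each tRNA had the same weight, 5′ reads averaged 14.9 ± 0.889% (SD, n = 3) and 14.8 ± 0.887% (SD, n = 5). Antisense reads were almost absent, with 2 reads in the 8 libraries together.

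Among single tRNAs, 744 tests (4 read types of 186 tRNAs) gave no adjusted call (limma, lowest adjusted p = 0.807) and 18 unadjusted calls (2.42%). Of the 15 tested tRNAs of the anticodon families with intron-containing precursors (Arg-TCT, Ile-TAT, Leu-CAA and Tyr-GTA), 11 had a larger 5′ share in 5xFAD mice. tRNA-Arg-TCT-4, whose precursor has no intron, was among the 11. Of the 15, 4 were counted, where 7 of all 186 tRNAs were counted with higher 5′ odds. The median log2 odds difference was 1.02 beside 0.39 for all tRNAs. Without WT shCT mouse 5 it was 0.50 beside 0.37, with 13 higher and 2 counted. In tRNA-Tyr-GTA-1, 5′ reads made up 0.725, 0.794 and 0.465% of its reads in 5xFAD mice against 0.0567, 0, 0, 0 and 0.439% in WT mice. In tRNA-Tyr-GTA-2 they made up 0.398, 0.361 and 0.272% against 0.0394, 0, 0, 0 and 0.230%. Both tyrosine tRNAs were without overlap, and in both WT mouse 15 was the only WT mouse near the 5xFAD level, while WT mice 5, 6 and 11 had no 5′ read among 1030 to 4416 reads. The log2 odds difference was 3.35 ± 0.97 in tRNA-Tyr-GTA-1 (limma unadjusted p = 0.00651, adjusted p = 0.807). In tRNA-Tyr-GTA-2 it was 3.07 ± 0.92 (limma unadjusted p = 0.00759, adjusted p = 0.807). Both tRNA-Ile-TAT-1 and tRNA-Ile-TAT-2 were counted too (limma unadjusted p = 0.0397 and 0.0414, adjusted p = 0.807), but WT mouse 15 overlapped the 5xFAD mice in both. Neither call held without WT shCT mouse 5 (limma unadjusted p = 0.0559 and 0.0581). The 4 Leu-CAA tRNAs had lower 5′ odds (median -0.22). For tRNAs often named as sources of 5′ fragments (Gly-GCC, Glu-CTC, Val-CAC, His-GTG and others), 22 of 39 had larger 5′ shares and none was counted. tRNA-Gly-CCC-1 had 1.7, 2.21 and 2.68% 5′ reads against 0.985, 0.702, 1.27, 0.919 and 1.47%, which did not overlap but differed by only 1.08 ± 0.52 in log2 odds (limma unadjusted p = 0.0674). tRNA-Lys-TTT-3 had fewer 5′ reads in every 5xFAD mouse (0.437, 0.397 and 0% against 0.702, 2.74, 3.21, 1.42 and 1.46%), on totals of only 137 to 328 reads.

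**Figure D5:**
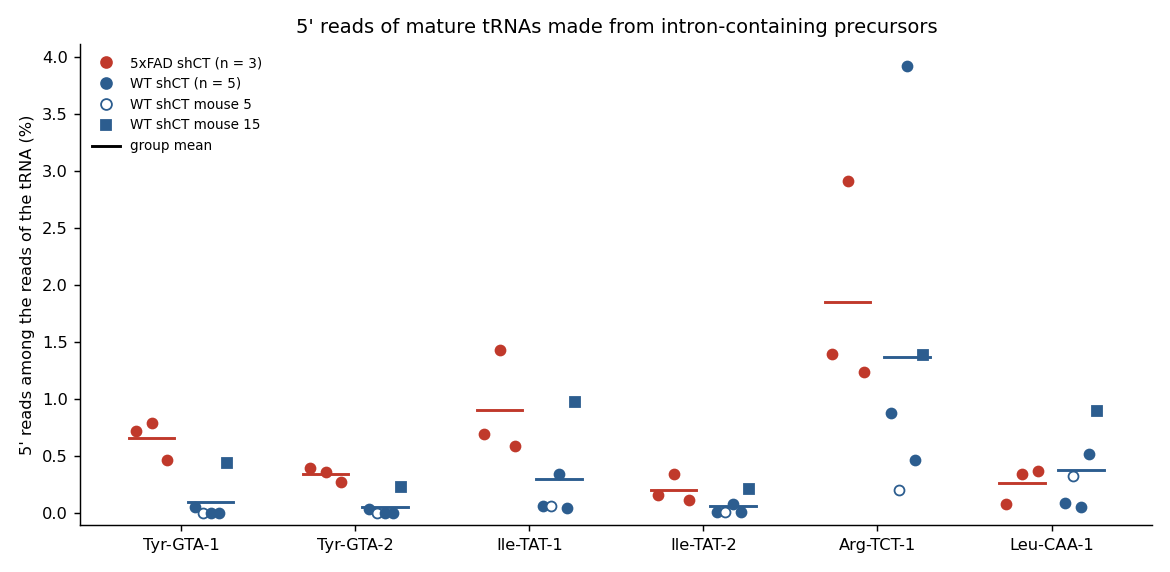
Share of 5′ reads among the reads of 6 mature tRNAs whose precursors can hold an intron, 1 point per mouse, in percent with group means as lines. The 3 5xFAD mice lie above all WT mice in Tyr-GTA-1 and Tyr-GTA-2, WT shCT mouse 15 (square) is the WT mouse nearest to them, and the groups overlap in the Ile-TAT, Arg-TCT-1 and Leu-CAA-1 tRNAs.

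In the mt-tRNA pool, mt-Th (histidine) took 58.9, 69.8 and 48.8% of mt-tRNA reads against 58.6, 39.3, 47.0, 56.7 and 60.0%, and mt-Tv (valine) took 15.4, 14.6 and 27.3% against 18.2, 11.7, 15.1, 22.1 and 20.6%. The groups overlapped in both. Of 22 mt-tRNAs none was counted and none was without overlap, and the lowest p values were those of mt-Tr (arginine, -1.56 ± 0.72, limma unadjusted p = 0.0569) and mt-Tg (glycine, -2.26 ± 1.06, limma unadjusted p = 0.0603). Both were higher on the deposited scale (1.58 and 0.89). mt-Tg took 0.497, 0.0695 and 0.226% against 1.31, 1.12, 2.20, 2.09 and 0.108%, so that WT mouse 15 lay with the 5xFAD mice, and the value of WT mouse 5 rested on 7 reads. mt-Te (glutamate) and mt-Tf (phenylalanine) had differences above 0 (0.52 ± 0.61 and 0.78 ± 0.53).

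In the snoRNA class, box C/D snoRNAs, which guide 2′-O-methylation, and box H/ACA snoRNAs, which guide pseudouridylation, differed in the direction of most members on the class scale. Of 83 box C/D genes tested, 70 were higher (46 without WT shCT mouse 5, in which the 98 genes of the table held 69 reads), 5 were counted, where 1.74% of all snoRNA entries were higher at that level, and 3 showed no overlap, where the share was 1.39%. Of 36 box H/ACA genes, 13 were higher and none was counted, whereas on the deposited scale all 36 were higher. All 5 counted C/D genes were Snord32a, Snord35a, Snord35b, Snord88a and Snord111. Rpl13a hosts Snord32a, Snord33, Snord34 and Snord35a, snoRNAs known from work on lipotoxic and oxidative stress. Snord35a took 0.0112, 0.0231 and 0.0281% of snoRNA reads in 5xFAD mice against 0.00185, 0, 0.00477, 0.00137 and 0.00710% in WT mice. All 5xFAD mice were higher, and the zero of WT mouse 5 allows up to 0.0644%, which is above all other values. The log2 difference was 2.25 ± 0.74 (limma unadjusted p = 0.0130), and 2.60 ± 0.63 without that mouse (unadjusted p = 0.00285, adjusted p = 0.604). Snord32a took 0.558, 0.824 and 0.833% against 0.120, 0, 0.549, 0.0750 and 0.392%, with 5xFAD mouse 1 only just above WT mouse 6 (2.65 ± 1.15, and 1.79 ± 0.71 without WT shCT mouse 5). Snord35b took 0.216, 0.167 and 0.232% against 0.0170, 0, 0.163, 0.00640 and 0.0813%, with WT mouse 6 just below 5xFAD mouse 16 (2.88 ± 1.03, limma unadjusted p = 0.0194).

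The other snoRNAs of Rpl13a did not separate the groups. Snord33 took 2.43, 3.83 and 2.76% against 1.57, 0, 1.81, 0.564 and 2.83%, with WT mouse 15 inside the 5xFAD range (2.43 ± 1.61, and 1.01 ± 0.57 without WT shCT mouse 5). Snord34 took 0.00897, 0.0105 and 0.0317% against 0.0171, 0, 0.0122, 0.0270 and 0.0112% (-0.03 ± 0.59). Snord111, in an intron of Sf3b3, and Snord88a were counted (2.35 ± 0.92, limma unadjusted p = 0.029, and 2.01 ± 0.75, limma unadjusted p = 0.0233) although WT mouse 15 overlapped in the first and WT mouse 6 in the second. The 4 Snord116 entries counted once, from the imprinted neuronal cluster, had log2 differences between -0.25 and 0.30. The 7 Cajal body RNAs were mostly lower on the class scale (2 higher) and all higher on the deposited scale. The predicted snoRNA gene Gm23389 was the 1 entry of the class (0.348%) counted as lower (-2.15 ± 0.75, limma unadjusted p = 0.0172, and 0.45 on the deposited scale), on at most 91 reads.

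snRNA entries were mostly lower on the class scale, and most of them are predicted genes. Of 256 predicted Gm genes tested, 206 were lower and 25 were counted as lower, where 9.33% of all snRNA entries were lower at that level. On the deposited scale 252 of the 256 were higher and under DESeq2 205 were. The direction also depended on the pseudocount. With 0.001% of the class added, 159 of all 268 snRNA entries were higher and 12 were counted as lower. With 0.5 read added, these numbers were 57 and 25. Gm23248 took 0.0272, 0.0227 and 0.0115% of snRNA reads against 0.101, 0.216, 0.0670, 0.113 and 0.0384%. The 5xFAD mice were lower without overlap, WT mouse 15 was the nearest, and WT mouse 5 rested on 2 reads (-2.31 ± 0.68, limma unadjusted p = 0.00723, and -1.94 ± 0.53 without that mouse). Gm22114 took 0.0148, 0.0103 and 0.00670% against 0.0426, 0, 0.0326, 0.0635 and 0.0173%, separate but for the zero of WT mouse 5, which allows up to 0.324% (-1.92 ± 0.58, limma unadjusted p = 0.00797). Of the 11 named snRNA entries tested, 6 were higher on the class scale (all 11 on the deposited scale) and none was counted. Rnu2-10, a U2 gene and an abundant member of the class, took 15.5, 19.4 and 17.7% against 15.7, 9.95, 13.5, 16.8 and 14% (0.34 ± 0.44).

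The other RNAs made by RNA polymerase III were higher in mean level under each of the 7 scalings and count models. None was counted when all 8 mice were used. On the deposited scale, however, all 184 other small RNA entries and 264 of 268 snRNA entries were higher. Under DESeq2 these numbers were 173 and 217, and on the class scale they were 114 and 57. All 7 polymerase III RNAs tested had log2 differences between 0.43 and 1.94 on the class scale (median 0.66, and 0.42 without WT shCT mouse 5). Reads here come from the fraction of 60 to 100 nucleotides. Whether they came from whole RNAs or from pieces of longer ones was not tested. Rn7sk, which holds the elongation factor P-TEFb inactive, took 0.394, 0.431 and 0.830% of snRNA reads against 0.275, 1.41, 0.198, 0.183 and 0.267%. Only WT mouse 5, on 13 reads, was above the 5xFAD mice, and without it the difference was 1.20 ± 0.43 (limma unadjusted p = 0.0217) in place of 0.66 ± 0.74. The Y RNAs, which bind the Ro60 protein, overlapped. Rny1 took 1.26, 1.61 and 1.18% of the other small RNA reads against 0.850, 0, 1.12, 0.663 and 2.01%, and Rny3 took 0.824, 2.45 and 1.12% against 0.547, 0.00796, 0.752, 0.504 and 3.52%, with WT mouse 15 the highest mouse in both. Gm25091, the other small RNA gene with most reads among those without overlap, took 15.9, 10.6 and 11% against 9.05, 0.0716, 10.1, 5.61 and 10.5%, and its log2 difference of 1.89 ± 1.52 was 0.52 ± 0.41 without WT shCT mouse 5. Of the other small RNA entries 9 of 184 (4.89%) were counted, 5 of them (2.72%) higher, and 9 (4.89%) lay above the WT mice without overlap. Among 51 rRNA entries none was counted and 2 (3.92%) lay higher without overlap. When WT shCT mouse 5 was left out, 4 (7.84%) were counted as higher, 7 (13.7%) lay higher and 2 (3.92%) lower without overlap. The mitochondrial mt-Rnr2 (1.20, 0.504 and 1.45% against 0.518, 0.0700, 1.01, 0.155 and 0.305%) overlapped through WT mice 3 and 6 (1.7 ± 0.83, limma unadjusted p = 0.0674).

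Reads of miRNA genes in a fraction of at least 60 nucleotides come from RNAs longer than the mature miRNAs of 21 to 26 bases below, so the values describe reads placed in the gene and not the mature form. Of the 136 miRNA genes listed, a mature sequence in RefSeq (GRCm38.p6) was found for 125. The sequences identify the genes that the results turn on, with the seed (bases 2 to 8) in capitals.
mmu-let-7a-5p: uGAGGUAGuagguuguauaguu
mmu-let-7c-5p: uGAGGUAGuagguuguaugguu
mmu-let-7g-5p: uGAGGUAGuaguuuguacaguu
mmu-miR-448-3p: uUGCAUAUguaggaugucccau
mmu-miR-6240: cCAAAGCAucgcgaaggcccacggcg
mmu-miR-219a-5p: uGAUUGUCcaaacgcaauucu
mmu-miR-5121: aGCUUGUGaugagacaucucc

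Mir5121, which overlaps Snord33 in the Rpl13a gene, had the most reads of the class in the 5xFAD mice and WT mouse 15. It took 47.2, 65.9 and 61.2% of the reads of miRNA genes in 5xFAD mice against 28.8, 0, 26.2, 6.29 and 58.7% in WT mice. WT mouse 15 lay within the 5xFAD range and the other WT mice below it (3.14 ± 2.04, and 1.32 ± 0.70 without WT shCT mouse 5). Of 58 miRNA genes tested, 4 (6.9%) were counted as lower and none as higher. Leaving out WT shCT mouse 5, 9 (15.5%) were counted as lower and 3 (5.17%) were lower without overlap. Mir6240 took 0.169, 0.0558 and 0.222% against 0.315, 4.18, 0.646, 0.691 and 0.376%. It was the 1 miRNA gene of the 58 (1.72%) that was lower without overlap, and WT mouse 5 was about 6 times above the next mouse (-2.53 ± 0.89, limma unadjusted p = 0.0181, and -1.90 ± 0.58 without that mouse). Mir448, which lies in the serotonin receptor gene Htr2c, took 0.0383, 0.0279 and 0.0160% against 0.0559, 0, 0.0668, 0.290 and 0.0677%, on at most 43 reads (-1.61 ± 0.69, limma unadjusted p = 0.0442, but 0.48 on the deposited scale). Mir1957a and Mir6236 were counted as lower too (-4.00 ± 1.58 and -1.87 ± 0.81, limma unadjusted p = 0.0305 and 0.0451), and Mir6236 turned to 0.18 on the deposited scale.

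The let-7 genes, whose mature forms share the seed shown above, were lower on the class scale in 8 of 9 tested genes (median -0.63) and in 9 of 9 without WT shCT mouse 5 (median -1.10, 4 counted, where 9 of all 58 miRNA genes, 15.5%, were). On the deposited scale and under DESeq2 all 9 were higher (medians 1.43 and 0.41). With each library centred on its median miRNA gene, 4 were higher and 5 lower (median -0.30). Mirlet7c-2 took 0.691, 0.263 and 0.342% against 1.31, 0.0853, 1.42, 1.73 and 0.510%, and Mirlet7g took 0.118, 0.0721 and 0.0669% against 0.128, 0.171, 0.245, 0.401 and 0.113%. Both were lowest in 5xFAD mice 16 and 18 once WT mouse 5, with 1 and 2 reads, is set aside, and the log2 differences without it were -1.52 ± 0.56 (limma unadjusted p = 0.0246) and -1.24 ± 0.54 (limma unadjusted p = 0.0489). Mir219a-2, from a miRNA family enriched in oligodendrocytes, took 0.995, 0.768 and 0.390% against 1.52, 0, 1.88, 1.06 and 0.579%, and its log2 difference changed from 0.16 ± 1.15 to -0.79 ± 0.54 without WT shCT mouse 5.

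Whether the genotype difference was the same after silencing of RTP801 was tested over all 18 libraries, with 6 5xFAD and 4 WT mice given shRTP801. No entry passed adjustment (limma, lowest adjusted p = 0.440), 135 (10.2%) were counted at an unadjusted p under 0.05, and a positive interaction means a larger 5xFAD excess with the control shRNA. It was positive in 13 of the 14 intron-containing loci (median 2.57), in all 15 pre-tRNA-Asp-GTC loci (median 2.30) and in the 4 mature Asp-GTC isodecoders (median 2.80). Over whole classes it was positive in 117 of 247 pre-tRNA loci (median -0.07) and 139 of 202 mature tRNAs (median 0.45). The interaction contains the control-shRNA difference already given above, by which many of the named entries were chosen. Its sign in them is therefore not a separate result. tRNA-Asp-GTC-4 had an interaction of 3.52 (limma unadjusted p = 0.0054), pre-tRNA-Met-CAT-3-1 of 3.25 (limma unadjusted p = 0.00912) and Snord35a of 3.98 (limma unadjusted p = 0.0052). On the lower side pre-tRNA-Thr-CGT-4-1 (-3.47, limma unadjusted p = 0.00638), mt-Tr (-2.50, limma unadjusted p = 0.0063) and pre-tRNA-Cys-GCA-3-1 (-1.93, limma unadjusted p = 0.00794) had the lowest p among the entries named here. Of the classes, the share of mature tRNA had an interaction of -1.07 on the log2 scale (exact permutation p = 0.0422 over 10584 regroupings, adjusted p = 0.328). In the shRTP801 groups too, 2 libraries (5xFAD mouse 7 and WT mouse 4) held over 98% mature tRNA reads. A refit of the entries without these 2 and WT shCT mouse 5 was added after seeing the data. It gave 276 unadjusted calls in place of 135 and no adjusted call (limma, lowest adjusted p = 0.11). The interaction of the class shares was not tested without them.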

How the data were processed

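Hydro-tRNA-seq libraries (1 per mouse) were analysed by the authors with tRAX on mm39, per the labels; the versions of aligner and tRAX are not given in the sources used here. The deposited table holds 3574 rows of normalised counts, a signal equal to reads divided by 1 size factor per library, and 100% of values in every library were whole multiples of the value of 1 read within 0.01. The recovered reads were used as percentages of their class. Copies of other small RNA genes that differed by at most 5% (from 100 reads) were counted once.

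Entries with a mean of at least 10 reads were tested with limma 3.58.1 (R 4.3.3) on log2 percentages with 0.5 read added, and read types on log2 odds from a mean of 100 reads, each with Benjamini-Hochberg adjustment; "counted" means an unadjusted p under 0.05. Class shares were compared by two-sided exact permutation (scipy 1.17.1). DESeq2 1.42.0 and edgeR 4.0.16 on recovered reads, other scales, filters, pseudocounts, RNA integrity and each mouse left out were alternatives. The scripts were tested on simulated data. Depth was 19835636 to 32308637 reads, and intervals or limits from reads cover counting error only. The number in each sample title was taken as that of a mouse.

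Genes were named if they were members of the lists, had the 3 smallest p of their class in a direction, or were among the 5 most abundant entries without overlap in a direction. Members and lists were chosen with earlier results of these data known. The single anticodon families (Asp-GTC, Ser-CGA, Met-CAT, Ala, Cys-GCA and the like), let-7, the predicted Gm snRNA genes and the snoRNAs of Rpl13a were grouped after their values were seen. Gene overlaps come from a RefSeq table of another build, used for names only.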

Additional observations from a re-analysis of the deposited data

Results flagged for a closer look

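In 75 values checked in the 5 WT shCT mice, 11 had 1 mouse whose gap to the next, divided by the range of the group, was above 0.71, where chance gives about 1 in 20 groups. The group of 3 5xFAD mice was not checked. WT shCT mouse 15 was the high mouse in the share of rRNA (0.880), pre-tRNA-Tyr-GTA-2-1 (0.767), pre-tRNA-Tyr-GTA-3-1 (0.822), pre-tRNA-Arg-TCT-2-1 (0.906) and Rny3 (0.788). WT shCT mouse 5 was the high mouse in tRNA-Arg-TCT-4 (0.744), Rn7sk (0.925), Mir6240 (0.903), Mir1957a (0.780) and Mir6236 (0.903). WT shCT mouse 11 was the high mouse in Mir448 (0.767).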

How the results depend on the processing

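Adjusted calls of single entries, read types and the interaction stayed at 0 under every alternative run for them except library weights estimated by limma, an alternative chosen after seeing the data, which gave 15 adjusted calls, 9 of them entries named above (lowest adjusted p = 0.0389) and 328 unadjusted calls. Unadjusted calls over all entries (76) were 117 with DESeq2, 156 with RNA integrity as covariate, 22 on the deposited scale, 27 as percentage of all reads, 39 from a mean of 100 reads, 48 with a pseudocount of 0.001% of the class, and 26 to 141 with 1 mouse left out. Read type calls ranged from 8 to 44 with 1 mouse left out. Interaction calls (135) were 37 on the deposited scale, 64 from a mean of 100 reads and 276 without the 3 libraries of almost tRNA reads alone (added after seeing the data). The cause was not tested. Leaving out 1 mouse, the log2 ratio of class shares ranged from -0.87 to -0.55 for mature tRNA, 0.68 to 1.46 for mt-tRNA, 1.11 to 1.95 for snoRNA, 0.20 to 2.30 for rRNA, 1.11 to 1.81 for miRNA and 0.90 to 1.74 for other small RNA; the adjusted exact permutation p of 0.0381 came without WT shCT mouse 15. Without Mir5121 reads, chosen after seeing the data, the miRNA ratio was 0.86 (adjusted exact permutation p = 0.214).

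Some directions reversed. Under DESeq2 and edgeR's TMM, tRNA-Asp-GTC-3 was -0.20 and -0.48, tRNA-Ile-AAT-1 -0.14 and -0.61 (deposited scale -0.10), pre-tRNA-Asp-GTC-1-2 -0.033 and -0.31, pre-tRNA-Asp-GTC-1-9 -0.033 and -0.30, pre-tRNA-Asp-GTC-1-11 -0.35 and -0.62, and pre-tRNA-Asp-GTC-4-1 -0.052 (TMM). On the deposited scale and as percentage of all reads, mt-Tg was 0.89 and 1.04, mt-Tr 1.58 and 1.74, Gm23389 0.45 and 0.57, Gm23248 0.27 and 0.41, Gm22114 0.67 and 0.80, Mir448 0.48 and 0.59, Mir6236 0.18 and 0.33 (DESeq2 0.011), Mirlet7g 0.79 and 0.94 (DESeq2 0.23), Mirlet7c-2 1.16 and 1.31 (DESeq2 0.041) and Snord34 2.54 and 2.68. Snord34 was also 1.61 (DESeq2), 1.35 (TMM), 0.11 (class total as offset), 0.69 (pseudocount of 0.001%) and -0.60 to 0.31 with 1 mouse left out, above 0 without 5xFAD shCT mouse 1 or 16 or WT shCT mouse 3 or 11. mt-Tv was -0.16 with library weights, -0.19 to 0.26 with 1 mouse left out, below 0 without 5xFAD shCT mouse 18 or WT shCT mouse 5. Mir219a-2 was -0.54 with the class total as offset, -0.80 with library weights, -0.038 with a pseudocount of 1 read, -0.79 to 0.58 with 1 mouse left out, below 0 without 5xFAD shCT mouse 1 or WT shCT mouse 5. No paired analysis was possible because each mouse number occurs in 1 group only. Depth limits the classes outside tRNA in WT shCT mouse 5.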
